A study of Homo sapiens with 4 samples.

Results

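In the list of m6A-enriched intervals from METTL3-depleted cells, 3383 intervals were at most 300 nt wide and shared no base with any interval of the comparison list on the same chromosome and strand. They are called short knockdown-only intervals here. They made up 42.2% of the 8022 short intervals of the knockdown list, and intervals without overlap made up 35.5% of that whole list of 13691. Both lists together held 24729 intervals. The members were chosen by these same positions, so nothing is read from those shares. Together the members covered 492.2 kb.

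The lists came from MeRIP-seq, in which RNA fragments precipitated by an m6A antibody are sequenced beside input RNA. The cells were 16-HBE, an established line of human bronchial epithelium. One condition, labelled CSE with genotype WT, received 5% cigarette smoke extract for 24 h. The other, labelled siRNA-Mettl3+CSE with genotype Mettl3 knockdown, received the same exposure, so the smoke extract is common to both. No control siRNA is named in the CSE labels and there was no unexposed condition, so the knockdown cannot be told apart from siRNA transfection. Each condition had 1 antibody library and 1 input library, and 1 interval list. The design text gives 3 replicates per condition, but the labels do not state how they entered the lists. There is therefore no replicate spread and no test between conditions, and a range after a value is a 95% interval of counting error only, Wilson's for shares and the exact order-statistic interval for medians. Without expression values, neither the METTL3 level nor a difference between more methylation and more RNA could be checked, and depth was not used here.

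N6-methyladenosine is written on messenger RNA by a complex in which METTL3 is the catalytic subunit and METTL14 its partner. The complex prefers adenosine within short motifs of which GGACT is the best known. The mark is known to gather near stop codons and in long internal exons, while exon junction complexes keep it low in short internal exons. Reader proteins of the YTH and IGF2BP families bind it, and it affects splicing, decay and translation of the RNA.

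The short knockdown-only intervals were largely whole exons. No annotation of the files' build, hg19, was used. Instead the widths and the spacing of neighbouring listed intervals were compared with exon pairs of GENCODE release 29, and 2460 of 3383 members (72.7%, 71.2 to 74.2) matched an exon end to end. This gives each matched member its gene, its exon number and the exon sequence, while positions printed are those of the files in hg19, counted from 1. The sequences below come from GENCODE transcripts, so single-base differences from hg19 were not checked. They show the 3 members with the highest scores, the widest matched member at 3100 (GSE1) and the best-scored members of 3 genes that hold many, 5′ to 3′ on the transcript strand. Capitals mark GGAC, or GGACT where a T follows. All are coding exons.
ACIN1 exon 5 of 19, chr14:23550957-23551045, minus strand: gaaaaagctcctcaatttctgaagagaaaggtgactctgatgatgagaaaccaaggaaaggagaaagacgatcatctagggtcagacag
NUDC exon 6 of 9, chr1:27269362-27269556, plus strand: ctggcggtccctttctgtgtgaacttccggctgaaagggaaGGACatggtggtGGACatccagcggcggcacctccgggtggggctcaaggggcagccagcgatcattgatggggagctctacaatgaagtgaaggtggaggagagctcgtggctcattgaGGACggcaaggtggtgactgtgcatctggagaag
LAMC1 exon 21 of 28, chr1:183101535-183101672, plus strand: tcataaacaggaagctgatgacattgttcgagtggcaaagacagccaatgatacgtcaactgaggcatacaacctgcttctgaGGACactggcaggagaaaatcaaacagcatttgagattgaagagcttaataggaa
GSE1 exon 14 of 16, chr16:85701746-85702030, plus strand: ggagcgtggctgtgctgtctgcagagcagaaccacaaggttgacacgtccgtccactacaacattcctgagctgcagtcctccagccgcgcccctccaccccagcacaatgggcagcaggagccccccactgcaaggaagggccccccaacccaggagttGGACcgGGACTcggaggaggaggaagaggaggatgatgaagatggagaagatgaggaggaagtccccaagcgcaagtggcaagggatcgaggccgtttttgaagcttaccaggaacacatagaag
UTRN exon 70 of 74, chr6:145157437-145157677, plus strand: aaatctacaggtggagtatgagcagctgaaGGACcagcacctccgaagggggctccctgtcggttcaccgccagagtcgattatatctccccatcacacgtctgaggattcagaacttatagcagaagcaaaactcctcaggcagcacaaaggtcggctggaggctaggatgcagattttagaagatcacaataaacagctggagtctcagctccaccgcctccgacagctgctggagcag
CENPF exon 15 of 20, chr1:214825053-214825229, plus strand: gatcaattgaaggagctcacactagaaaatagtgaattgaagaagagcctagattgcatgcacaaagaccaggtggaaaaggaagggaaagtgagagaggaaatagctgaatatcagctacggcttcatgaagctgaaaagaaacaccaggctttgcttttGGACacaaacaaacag
CIT exon 18 of 48, chr12:120208589-120208714, minus strand: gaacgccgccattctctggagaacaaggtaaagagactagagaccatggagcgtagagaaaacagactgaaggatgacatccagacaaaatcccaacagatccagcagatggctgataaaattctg
Of these 7 exons, GSE1 held GGACT, NUDC held 3 copies of GGAC, LAMC1, UTRN and CENPF held 1 GGAC each, and ACIN1 and CIT held neither.

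Each interval carries a peak score from the authors on a scale that is not stated, with a lowest value of 50.02 and many values at exactly 3100. The median score of the 3383 members was 108.8 (105.5 to 112.4), with quartiles of 71.3 and 197.5. Of all members, 1539 (45.5%) scored under 100 and 48 (1.42%, 1.07 to 1.88) scored 3100 or more. Short intervals of the same list that overlapped a CSE interval had a median score of 435.6 (416.0 to 458.8, n = 4639), and 9.03% of them reached 3100. Knockdown-only intervals wider than 300 nt lay between, with a median of 141.9 (133.8 to 149.5, n = 1472). The CSE list showed the same order within itself, with a median of 87.19 (83.61 to 92.05, n = 996) for short CSE-only intervals and 207.5 (196.7 to 216.0, n = 4643) for short shared ones. Members were 75.1% of the short intervals in the lowest of 4 equal score classes of the knockdown list, 49.6% in the next, 20.3% in the one above and 8.62% in the highest. The score and the choice of members come from the same list, so these values describe the members and are not a test.

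**Figure D1:**
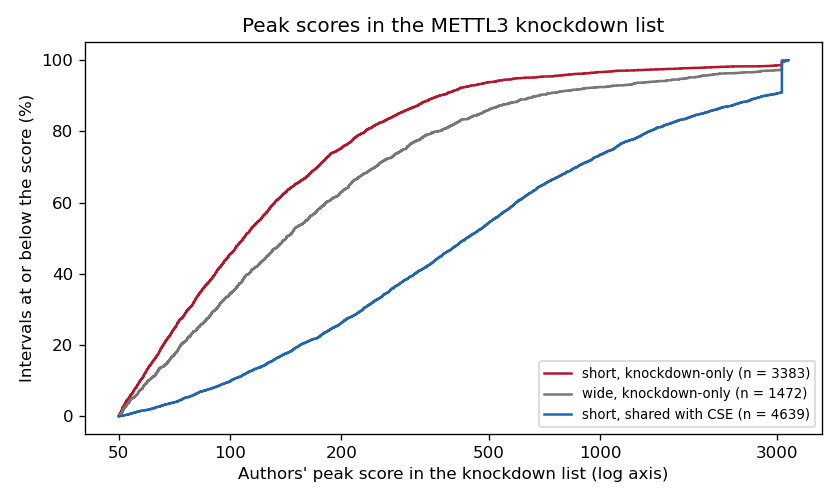
Cumulative percent of intervals (vertical axis) at or below each peak score of the knockdown list (horizontal, log axis, no unit), for short knockdown-only, wide knockdown-only and short shared intervals. The short knockdown-only curve lies to the left with a median of 108.8, the short shared curve to the right with a median of 435.6, and the step at the right edge is the pile-up at 3100.

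Width was set by the rule only at its upper end. The median was 139 nt (136 to 141), with quartiles of 102 and 183 nt and a range from 1 to 300 nt. Short shared intervals had a median of 146 nt (144 to 148). Score and width were almost unrelated over the members (Spearman's rho 0.047 across intervals, a description). Just inside the limit, the member at chr11:981198-981497 on the plus strand was 300 nt wide with a score of 50.26, and that at chr2:152146107-152146405 on the minus strand was 299 nt wide with 264.4. Just outside it, 301 nt intervals at chr9:5231419-5231719 and chr3:183873284-183873584, both on the plus strand, scored 151.8 and 109.6. The plus strand carried 51.5% of members (49.8 to 53.2).

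The median gap between a member and the nearest CSE interval on the same strand was 11637 bases, with quartiles of 3430 and 59617. Only 4 members had a CSE interval within 100 nt, 202 (5.97%, 5.22 to 6.82) within 1000 nt and 1592 (47.1%) within 10 kb. On the other strand, 0 of 3383 members overlapped a CSE interval, which allows up to 0.113%. The nearest other member lay farther off still, at a median of 38279 bases. Another member lay within 10 kb on the same strand for 1085 members (32.1%, 30.5 to 33.7), and any other knockdown interval did for 2064 (61.0%).

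A missing CSE interval need not mean a missing CSE call. The interval names carry a running number that rose along every chromosome in both lists, with 0 descents. Between the listed CSE intervals on either side of a member, at least 1 number was missing from the CSE list for 3241 of the 3371 members that had CSE intervals on both sides (96.1%, 95.4 to 96.7). The median was 6 missing numbers, with quartiles of 3 and 12 and a maximum of 76. If the numbers count calls, a CSE call at the member's position that is missing from the list is possible for all of these. For 130 members (3.86%, 3.26 to 4.56) no number was missing. The share was not computed for other intervals or for gaps of the CSE list at large, so it is not read as a trait of the members.

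**Figure D2:**
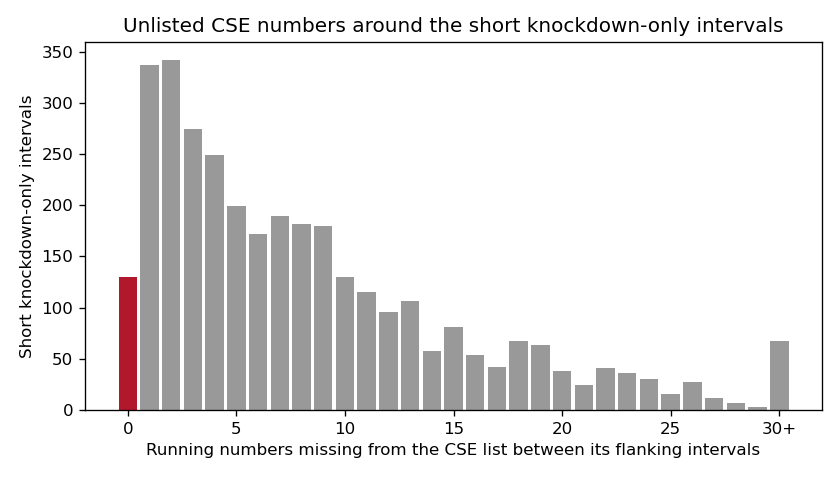
Number of short knockdown-only intervals (vertical axis) by how many running numbers are missing from the CSE list between the listed CSE intervals on either side (horizontal axis, last bar 30 or more). The coloured bar at 0 holds 130 members, and the others, 3241 members, have 1 or more missing numbers.

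Those 130 members had a median score of 234.7 (175.9 to 364.8), against 107.5 (103.9 to 110.4) for the 3241 others. Their nearest CSE interval lay at a median of 1372 bases. A short gap has less room for missing numbers, so closeness is partly built into how this subset was picked. Of the 48 members at 3100 or more, 15 (31.2%, 20.0 to 45.3) were among the 130. The 130 were matched to exons in 103 cases, in 91 genes. The subset and the examples named here were picked after the values were seen, and other members of it had scores as high. Exon 6 of NUDC, a dynein-associated chaperone of nuclear migration, scored 3160.8 with the nearest CSE interval 1210 bases away. Exon 21 of LAMC1, the laminin gamma-1 chain of basement membranes, scored 3128.3 at a distance of 868 bases. EIF3A, the largest subunit of the translation initiation factor eIF3, had 2 such exons, numbers 18 and 21 of 22, both at 3100. HUWE1, a ubiquitin ligase, followed with exon 51 of 83 at 2696.1, and BRD3, a bromodomain protein that binds acetylated histones, had exon 4 of 10 at 2158.9.

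Among the 2460 matched members, 95.2% (94.3 to 96.0) were internal exons of their transcript, 110 (4.47%) were first exons and 8 (0.325%) were last exons. For short shared intervals these shares were 95.3%, 4.11% and 0.590%. For the short exons of the members' own genes that matched no listed interval they were 95.8%, 3.68% and 0.484%. Wholly in the 5′ untranslated region lay 90 members (3.66%), and wholly in the 3′ untranslated region 3 (0.122%). The untranslated shares were 2.50% and 0.107% for short shared intervals, and 4.30% and 0.192% for the short exons of 1 transcript per coding gene. The members' sequence was coding from end to end in 90.8% (89.6 to 91.8). For short shared intervals this coding share was 91.2% (90.2 to 92.1). It was 92.8% (92.4 to 93.1) for the short exons of the members' own genes that matched no listed interval, and 87.8% (87.7 to 88.0) for the short exons of 1 transcript per coding gene. Within the coding sequence the members' midpoints stood at a median of 0.49 of its length (0.47 to 0.51), and 33.4%, 37.0% and 29.6% lay in its first, middle and last part of equal length. The median exon number was 9, in transcripts with a median of 20 exons. A multiple of 3 bases, which keeps the reading frame if the exon is skipped, was the width of 40.8% (38.8 to 42.9) of the internal coding members and of 40.5% of all such exons.

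An end-to-end match needs a second listed exon of the same gene, so the shares matched depend on how many neighbours are listed. The share was 80.3% (79.2 to 81.4) for short shared intervals, 58.4% (55.4 to 61.5) for short CSE-only ones and 18.9% for wide knockdown-only ones. The 923 unmatched members were wider, with a median of 162 nt (155 to 167) against 132 nt, had a median score of 99.97, and only 9.21% had another member within 10 kb. For 60 matched members more than 1 gene fitted, so their gene is uncertain. Over both lists, 18257 interval pairs matched an exon pair on their own chromosome and strand and 9 matched only elsewhere.

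The motif GGACT was searched on the transcript strand, together with GGAC, which contains it, and with AGTCC, its reverse complement, as a reference of equal composition. Of the 2227 internal coding members, 213 (9.56%, 8.41 to 10.9) held GGACT. The share was 9.77% (8.82 to 10.8) in 3388 short shared exons and 13.6% (10.9 to 16.9) in 506 short CSE-only exons. It was 10.7% (10.2 to 11.1) in the short exons of the members' own genes that matched no listed interval, and 12.4% (12.2 to 12.5) in the short internal coding exons of all coding genes. Per kb of exon, members held 0.74 GGACT and 0.86 AGTCC, and short shared exons 0.72 and 0.88. The same genes' unlisted exons held 0.91 and 0.85, CSE-only exons 1.035 and 0.89, and all coding genes 1.06 and 0.83. Among these sets of short exons, GGACT was thus below its reverse complement in members and short shared exons and above it in the others. It was also below in internal coding exons of the wide sets. Per kb these held 1.07 against 1.20 (shared), 1.11 against 1.14 (knockdown-only) and 1.07 against 1.29 (CSE-only).

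Longer exons hold the motif more often, so the sets were also compared within width classes. Members held GGACT in 4.53% of exons over 50 and up to 100 nt wide, 8.645% of those up to 150 nt, 13.85% of those up to 200 nt and 16.4% of those up to 300 nt. For all coding genes the shares were 7.70%, 12.3%, 17.1% and 21.8%, higher in every class. The unlisted short exons of the members' genes were also higher than the members in each class, at 6.21%, 10.6%, 14.7% and 20.8%, with overlapping 95% intervals in every class. Short shared exons held GGACT in 3.58%, 8.94%, 13.1% and 14.9%, near the members and below all coding genes in every class. A low share was thus not particular to the members. Exons are not replicates, and no test was run.

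**Figure D3:**
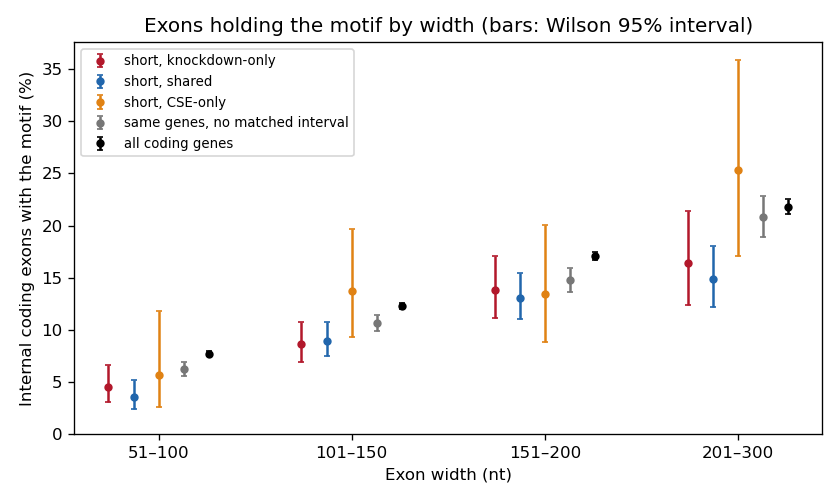
Percent of internal coding exons holding GGACT (vertical axis) in 4 classes of exon width (horizontal axis, nt), with Wilson 95% intervals, for short knockdown-only, short shared and short CSE-only exons, exons of the members' genes without a matched interval, and all coding genes. The short knockdown-only points rise from 4.53% to 16.4% and lie below the points for all coding genes in every class, as do the short shared points.

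Among these sets of short exons, the median GC content rose in the same order as the GGACT share, while AGTCC per kb did not follow that order. The median GC content of the internal coding members was 44.3% (44.0 to 44.7). It was 45.0% (44.6 to 45.3) for short shared exons, 45.5% (45.3 to 45.7) for the same genes' unlisted exons, 49.5% (47.8 to 50.6) for short CSE-only exons and 49.4% (49.3 to 49.5) for all coding genes. The part of base composition in the motif shares was not tested. Within every width class too, members were poorer in GC than the exons of all coding genes, from 42.9% against 47.6% in the narrowest class to 46.8% against 52.6% in the widest. Short shared exons, from 42.4% to 49.05%, were also below all coding genes in every class. So were the same genes' unlisted exons, from 43.8% to 48.8%. A low GC content was thus not particular to the members.

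**Figure D4:**
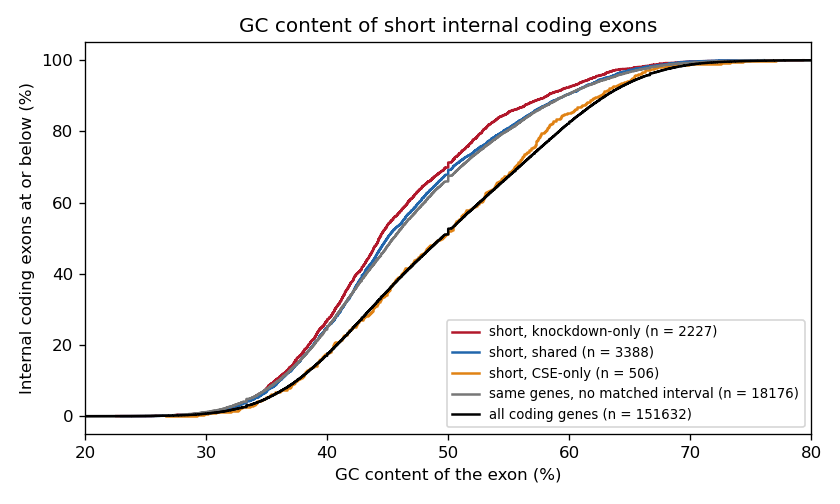
Cumulative percent of short internal coding exons (vertical axis) at or below each GC content (horizontal axis, %). The short knockdown-only curve (n = 2227, median 44.3%) runs farthest to the left, near short shared exons and the unlisted exons of the same genes. The short CSE-only curve (n = 506) has a median of 49.5%, near that of all coding genes (49.4%).

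The GGACT share hardly varied with the score, at 9.26% (7.60 to 11.2) under a score of 100, 9.84% (7.84 to 12.3) from 100 to under 200 and 9.76% (7.56 to 12.5) at 200 or more. For the shorter GGAC, the 73 internal coding members with a score of 1000 or more stood at 56.2% (44.8 to 67.0), against 35.8% (33.8 to 37.8) of the 2154 below 1000. The median GC content of the 73 was 48.6% (44.0 to 52.5), against 44.2%, and their median width 143 nt (124 to 162), against 131 nt (128 to 133). The parts of width and base composition in this difference were not tested. GGACT itself was in 9.59% (4.72 to 18.5) of the 73 and in 9.56% (8.39 to 10.9) of those below 1000. The reverse complements stood at 21.9% against 25.7% for GTCC and 12.3% against 10.7% for AGTCC. For GGAC, short shared exons showed 38.4% (35.4 to 41.5, n = 975) at 1000 or more and 37.1% (35.2 to 39.1) below. The class of 1000 or more was 1 of 4 score classes and GGAC 1 of 4 motifs looked at, and the difference was picked out after the values were seen.

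Only 3 members scored above 3100, and the others of the 48 at 3100 or more tied at exactly 3100, so the 10 named as highest are these 3 and the widest 7 at 3100. Of the 10, 6 were matched to exons. The highest score, 3227.0, belonged to 89 nt on chromosome 14, exon 5 of ACIN1, a protein that associates with the exon junction complex and with splicing factors. NUDC and LAMC1 followed with the scores given above. The other 7 scored 3100. They include exon 14 of 16 of GSE1, a chromatin co-repressor subunit, with 285 nt, and exon 7 of 28 of HDLBP, the RNA-binding protein vigilin, with 216 nt at chr2:242195599-242195814. Exon 1 of 40 of CHD3, a remodeller of the NuRD complex, held the start codon in its 250 nt at chr17:7792169-7792418. The 4 unmatched ones lay at chr16:11933552-11933842, chr5:17217670-17217919, chr14:77924373-77924612 and chr17:8022014-8022234. The last of these had a CSE interval only 206 bases away, while for the one on chromosome 5 it was 57397 bases away.

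Of the 48 members at 3100 or more, 38 were matched, in 31 genes, and 35 of these were coding only. MYH9, the heavy chain of non-muscle myosin IIA, held 4 of them, exons 22, 24, 26 and 38 of 41, with widths of 207, 124, 213 and 209 nt. In the same transcript exons 31 and 32 were listed in both conditions, at 3100 in each list. EIF3A, ABCF1, CHD3 and CDK11A held 2 each, though the CDK11A member at chr1:1647785-1647917 fitted another gene as well. EIF3A exon 17, ABCF1 exon 1 and CDK11A exon 6 were shared at 3100 in both lists, and CHD3 exon 3 was listed only for CSE, at 3100. These genes were picked after their values were seen. In each of these 5 genes at least 1 other exon was thus listed for CSE.

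The matched members fell in 1387 genes, of which 1382 were protein-coding. These were 59.9% of the 2315 genes with any matched interval in either list. Most genes held few members, with 784 genes at 1, 360 at 2, 136 at 3 and 107 at 4 or more. In 1144 of the 1387 genes (82.5%, 80.4 to 84.4) a shared interval was matched too, in 313 (22.6%) a CSE-only interval, and in 119 (8.58%) no other interval was matched. A match needs a second listed exon of the same gene, so a lone member was given no gene. By this method the share with another matched interval runs high and the share without runs low. Where a gene held members and short shared intervals, the members usually had the lower median score. In 778 of 926 such genes (84.0%, 81.5 to 86.2) the median score of the members lay below that of the short shared intervals of the same list, with medians over genes of 119.6 against 415.4. The whole knockdown list showed the same order (108.8 against 435.6). The members were chosen from these lists, so this is a description and not a test.

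The 10 genes with the most members are described next, with ties broken by summed width, so that PCNT and MYO5C are included and CCDC93, which also held 8, is not. UTRN, the dystrophin relative utrophin that links actin to the membrane, held 14, spread from exon 8 to exon 70 of 74. Their scores ran from 50.43 over a median of 122.9 to 442.4. UTRN also held 6 short shared exons, with scores of 109.7 to 1072.1 in the knockdown list and 52.66 to 148.8 in the CSE list, where the lowest listed value was 50.02. The UTRN members' scores overlapped those of its shared exons in the knockdown list. Over all short shared intervals the median score was 435.6 in the knockdown list and 207.5 in the CSE list. Higher scores in the knockdown list, here and in the genes below, are thus not read as particular to these genes.

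CENPF, a kinetochore protein of mitotic cells, held 11 members in a transcript of only 20 exons, and 6 of them were the consecutive exons 6 to 11. The scores of these 6 were 70.24, 106.8, 158.2, 101.1, 259.5 and 78.71, in exon order. Later CENPF exons scored higher, with 577.5 for exon 15, 531.0 for exon 16 and 295.98 for exon 19. The shared CENPF exons, 1 short and 2 wide, scored between 1114.8 and 3100 in the knockdown list and between 65.06 and 618.4 in the CSE list, so every member lay below them. Of the 11 CENPF members, 0 held GGACT.

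EEA1, which tethers early endosomes before they fuse, showed the same run of neighbours. Its 10 members were exons 13 to 18 and 20 to 23 of 29. The scores of exons 13 to 18 were 50.80, 142.4, 209.6, 85.57, 283.9 and 178.1, and those of exons 20 to 23 were 87.98, 163.0, 173.4 and 414.2. Exon 19, between the runs, was a wide exon listed in both conditions, with 483.0 in the knockdown list and 96.18 in the CSE list. Shared exons 24, 25 and 26 followed directly, with 638.0, 849.9 and 454.6 in the knockdown list.

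CIT, the citron kinase of cytokinesis, held 11 members, 10 of them between exons 14 and 29 of its 48-exon transcript and 1 in a shorter transcript. Their scores ran from 63.59 to 483.0 with a median of 126.5, and the 1 shared CIT exon scored 582.4 in the knockdown list and 50.61 in the CSE list. CDK5RAP2, which brings gamma-tubulin complexes to the centrosome, held 11 with scores from 52.04 to 406.9, among them the consecutive exons 13 to 16. PCNT, the centrosome scaffold pericentrin, held 8, from 51.60 to 322.7. AKAP9, which anchors protein kinase A at the centrosome and Golgi, held 11, from 59.55 to 315.8, beside 6 short and 5 wide shared exons. In AKAP9 the shared exons scored up to 3100 in the knockdown list and up to 844.0 in the CSE list.

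SYNE2, the nuclear envelope linker nesprin-2, held 11 members scattered over exons 21 to 105 of 116, with scores from 53.86 to 372.1. DST, the plakin dystonin, held 9 over exons 11 to 87 of 98 and the highest median score of the 10 genes, 274.4. It also held 11 short and 4 wide shared exons and 3 CSE-only exons. MYO5C, an unconventional myosin of epithelial cells, held 8, from 57.45 to 330.2, of which 2 fitted another gene as well.

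**Figure D5:**
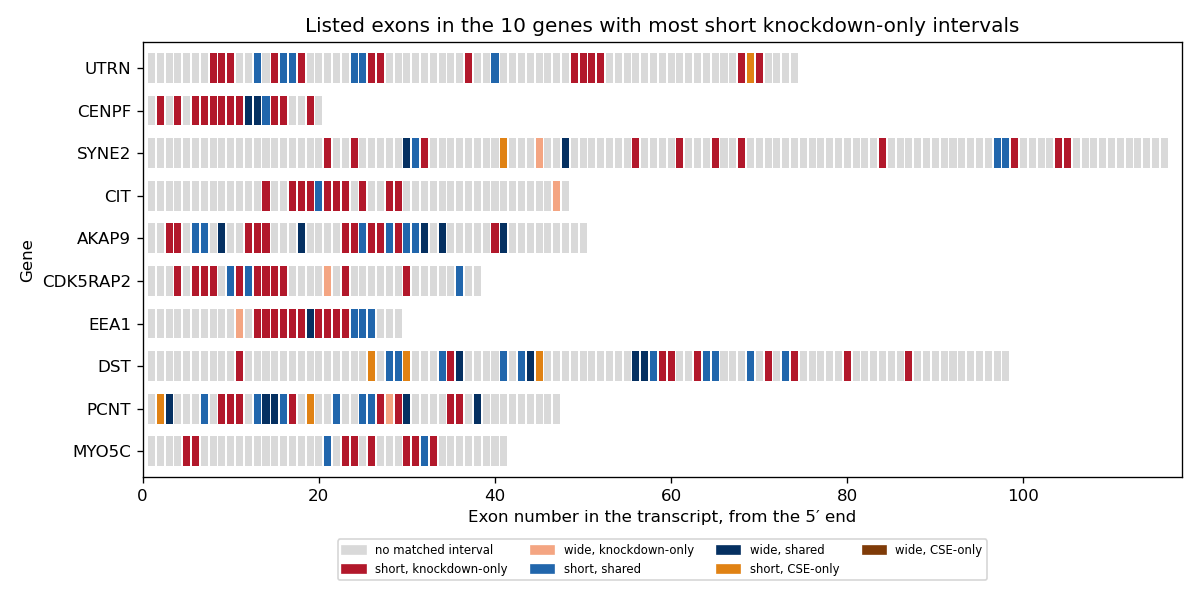
Exons (horizontal axis, number from the 5′ end of 1 transcript) of the 10 genes with most short knockdown-only intervals (vertical axis), coloured by the kind of interval matched, in grey where none was matched. The member exons form unbroken runs in CENPF (6 to 11) and EEA1 (13 to 18 and 20 to 23) and are scattered in SYNE2 and DST.

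Over all genes, members on the transcript used had a matched interval of some kind on a neighbouring exon in 59.0% (57.0 to 60.9) and another member there in 26.6% (24.9 to 28.4). For short shared exons of the same genes the shares were 76.0% (74.2 to 77.7) and 28.6% (26.7 to 30.5). The nearest shared exon was a median of 2 exons away. There were 288 runs of 2 or more consecutive member exons and 51 of 3 or more. The longest after CENPF and EEA1 were 5 exons each in KIF20B, a mitotic kinesin (exons 22 to 26), and in ENOX2, an NADH oxidase (exons 8 to 12). In KIF20B the 5 scores were 90.90, 128.0, 135.1, 221.4 and 456.0. These shares count only members whose gene was found through a neighbour, so they run high.

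Gene lists chosen with earlier results in view are counted beside the 59.9% of all genes with a matched interval that hold a member. Of 8 m6A writer genes, 4 had a matched interval and 2 held members. METTL14, the partner of METTL3, had exon 5 of 11 with a score of 85.33 and exon 10 with 67.26. ZC3H13, a scaffold of the writer complex, had scores of 116.0 and 171.8. METTL3 itself held no matched member. Of 12 eraser and reader genes, 4 had a matched interval and 2 held members, the nuclear reader YTHDC1 with 460.6 and 58.58 in the adjacent exons 9 and 8, and IGF2BP2, a reader that stabilises RNA, with 4 scores from 56.41 to 301.5.

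Of 15 keratin and junction genes of airway epithelium, the labelled tissue of the line, 6 had a matched interval and 4 held members. CTNND1, the catenin p120 of adherens junctions, had exon 15 of 21 at 1798.8, far above the members' median. DSP, the desmosomal plakin, had 660.99, 60.22 and 792.7, TJP1 of tight junctions had 167.9 and 58.50, and OCLN, also of tight junctions, had 142.6 and 106.2. Of 15 mitosis and centrosome genes, 14 had a matched interval and 12 held 60 members in all. All 7 endosome and Golgi coiled-coil genes with a matched interval, of 9 listed, held members, 26 in all. All 14 of the linker and myosin genes with a matched interval, of 15 listed, held members, 64 in all, with SPTBN1, the spectrin beta chain, at 1896.5 in exon 29 of 36. Genes with many exons have more chances to hold a member, and the part of exon number in these counts was not tested.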

How the data were processed

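MeRIP-seq antibody and input libraries of 2 conditions gave 1 deposited interval list each, with 6 columns and, per interval, the authors' peak score, whose scale is not stated. Per the submitters' processing notes, alignment used HISAT2 2.0.4 and the build was hg19. Interval names start with MACS, a peak caller, and no label gives its version or settings. Members were rows of the knockdown list of up to 300 nt without 1 bp of overlap with the CSE list on the same strand. The members, gene lists and rules were chosen with earlier results of these data known. Named are the 10 members with the highest scores (ties by larger width), the members next to the width limit and the 10 genes with most members (ties by larger summed width). Results on genes and sequence had been planned only with annotation of hg19. They were made instead by matching, a choice made after seeing the data: pairs of intervals within 1 Mb, each against up to 60 following ones, had to equal the widths and spacing of an exon pair of GENCODE release 29 exactly, anywhere in the genome, and no position was carried between builds. Whether positions lie inside exons otherwise was not run. Scores of the lists are ranked within a list only. Read depth is unknown here, and 95% intervals treat intervals as independent. Alternatives changed the overlap rule, strand, score minimum, width ceiling, motif and number of partner exons. Python 3.11.15, pandas 2.3.3 and scipy 1.17.1 were used.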

Additional observations from a re-analysis of the deposited data

How the results depend on the processing

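Of 44 values under alternatives, 36 stayed within their counting interval or within 1.5 times the count, and 8 moved. With a score of at least 100, 1844 members remained, with a median score of 183.1, 24.4% had another member within 10 kb, and 75% matched an exon. A width ceiling of 200 nt gave a median width of 126 nt and 77.3% matched. Counting GGAC followed by any base in place of GGACT gave 36.5%. Requiring 2 or more partner exons, an alternative chosen after seeing the data, matched 56.9%, by construction fewer, with GGACT in 9.59% of exons. Overlap of at least 50% of both intervals (3395 members), gaps of up to 100 nt counted as shared (3379) and overlap on either strand (3383) changed little. These settings kept nearly or exactly the same members, so little change could appear, and many of the 36 values come from them. Matching of borders within a few bases and lying inside exons were not run, because no annotation of hg19 was used. No paired analysis was possible because each condition has 1 list and no replicate numbers. The members' median score was 108.8, where the lowest listed value was 50.02. The parts of read depth and of the selection of deposited intervals were not tested. What an absence from the CSE list shows is therefore limited.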

Other observations

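By chromosome, and read beside 42.2% over all short knockdown intervals, the share that were members ran from 33.5% (27.7 to 39.9, 76 of 227) on chromosome 20 to 48.7% (41.8 to 55.7, 94 of 193) on chromosome 13, leaving out chromosome Y with 7 short intervals. The interval for chromosome 13 includes the value over all. Those for chromosomes 19 and 20 lie below it, and those for chromosomes 4 and 10 above it. These shares rest on the positions that chose the members, and no test was run over chromosomes.

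Among short shared exons with identical borders in both lists, those in genes with a member had a median score of 488.6 (457.1 to 514.0) in the knockdown list and 196.7 (184.6 to 210.9) in the CSE list, over 2265 exons. Those in genes without a member had 444.8 (409.1 to 485.3) and 243.4 (230.9 to 263.4), over 1453 exons. For wide shared exons the medians were 1125 (992.1 to 1281) and 545.7 (484.7 to 634.4) in genes with a member and 897.8 (768.4 to 1082) and 605.8 (511.8 to 734.8) in genes without. The ranges overlapped in the knockdown list for short and in both lists for wide exons, and no test was run. A low CSE score is close to the rule that makes an exon a member.

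Past the 10 genes described, CCDC93, a subunit of an endosomal recycling complex, held 8 members with scores from 65.01 to 165.4. Another 6 genes held 7 members each. MACF1, an actin and microtubule crosslinking plakin, had scores from 68.94 to 385.1, and MYH14, the heavy chain of non-muscle myosin IIC, from 69.16 to 575.0. BDP1, a subunit of the initiation factor of RNA polymerase III, had scores from 51.88 to 169.7, and NCOR1, a nuclear receptor co-repressor, from 54.72 to 304.4. PTPN13, a tyrosine phosphatase, had scores from 79.13 to 208.5, and PLEKHA5 from 63.70 to 229.4. The MYH14 members lay between exons 22 and 39 of 42, while its 4 shared exons scored 486.6 to 635.6 in the knockdown list and 56.90 to 157.6 in the CSE list.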
